A study of Mus musculus with 4 samples.

Results

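Transcripts of 8 genes were followed in the immortalised mouse microglial line BV2, with and without lipopolysaccharide (LPS), the bacterial cell wall component sensed by TLR4. Except for Ripk2, a relative of Ripk1, these genes carry or restrain a death signal from the cell surface. The genes are Fas, Fadd, Casp8, Cflar, Ripk1, Ripk2, Ripk3 and Mlkl, taken by symbol, and all 8 were found among the 24411 gene symbols of the count table. Every culture carries, by its label, the Pu.1 gene knocked out with CRISPR-Cas9, which codes for a transcription factor of the myeloid lineage (mouse symbol Spi1). One group of 2 libraries was not treated and the other group of 2 libraries received LPS at 10 ng/ml, for 2 h by the source label and 4 h by the title. The labels do not say whether the knockout line is 1 clone or a pool. Wild-type cells were not analysed here, so every comparison is LPS against no treatment within the knockout line.

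Fas is a death receptor at the plasma membrane. Its adaptor FADD recruits caspase-8, the protease that starts the extrinsic route to apoptosis. The CFLAR protein, also called c-FLIP, resembles caspase-8 without its catalytic activity, pairs with it and holds its activation in check. RIPK1 sits below the TNF receptor and TLR adaptors. When caspase-8 is blocked, RIPK1 can engage RIPK3, which phosphorylates the pseudokinase MLKL, and MLKL then breaks the plasma membrane in the process named necroptosis. RIPK2 is a relative of RIPK1 that serves the NOD receptors, cytosolic sensors of bacterial cell wall fragments.

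Gene counts totalled 3256197 to 4502105 per library. Levels are given as CPM, read counts rescaled to a common library size that was adjusted by TMM (the trimmed mean of M values), as mean ± SD of 2 libraries. Differences are log2 fold changes of LPS over untreated with a standard error (SE), tested with edgeR's quasi-likelihood test, two-sided, with p adjusted over all 9992 genes tested. Spi1 was counted in every library, at 743 to 958 reads, and whether or how the edit altered the transcript was not tested. Its level went from 163 ± 2.06 CPM to 275 ± 23.1 CPM after LPS (log2 fold change 0.75, edgeR adjusted p = 8.8e-10). Of 12 microglia and macrophage markers 11 had enough counts to test, and P2ry12 (0 to 2.29 CPM) did not. Their summed level was 2809 to 2893 CPM without LPS and 3786 to 3992 CPM with it. Of the 11 tested, 7 rose and 2 fell after LPS, beside 26.6% and 25.3% of all genes tested. Tmem119, a marker of resident microglia among the 2 that fell, averaged 19.1 ± 4.28 CPM without LPS and 5.46 ± 0.863 CPM with it. Itgam, among the 7 that rose, averaged 25.7 ± 4.96 CPM without LPS and 117 ± 2.97 CPM with it. All neuron and epithelial markers were at 0 in each library, and the summed fibroblast, astrocyte, oligodendrocyte and lymphocyte markers stayed at or below 1.39 CPM. Of 6 endothelial markers Pecam1, Tek and Cldn5 were at 0, and the list summed to 22.8 to 23.2 CPM without LPS and 34.0 to 49.9 CPM with it, nearly all of it Kdr and Vwf, whose part in the results below was not tested. In bulk RNA a change in the number of expressing cells and a change in RNA per cell cannot be told apart.

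The promoters of Cflar, Fas, Casp8 and Mlkl are shown because these genes rose, by different amounts, and share a pathway. Each sequence holds the 250 bases before a RefSeq transcription start on build GRCm38.p6, and 7 of the 8 genes matched the table, all but Ripk2. Cflar lies at chr1:58711241-58711490 (plus strand), Fas at chr19:34290409-34290658 (plus strand), Casp8 at chr1:58802252-58802501 (plus strand) and Mlkl at chr8:111338206-111338455 (minus strand). Capitals mark matches, on either strand, to an NF-kB pattern (GGGNNNNNCC) or to the core of the interferon regulatory factor (IRF) site (AANNGAAA). Also searched were the interferon-stimulated response element (ISRE, GAAANNGAAA, which contains the IRF core) and a PU.1 site (GAGGAAGT).
Cflar: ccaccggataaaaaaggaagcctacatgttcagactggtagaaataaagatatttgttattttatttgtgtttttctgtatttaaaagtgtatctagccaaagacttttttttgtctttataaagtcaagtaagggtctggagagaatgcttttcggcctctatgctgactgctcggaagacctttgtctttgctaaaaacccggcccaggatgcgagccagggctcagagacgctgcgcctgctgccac
Fas: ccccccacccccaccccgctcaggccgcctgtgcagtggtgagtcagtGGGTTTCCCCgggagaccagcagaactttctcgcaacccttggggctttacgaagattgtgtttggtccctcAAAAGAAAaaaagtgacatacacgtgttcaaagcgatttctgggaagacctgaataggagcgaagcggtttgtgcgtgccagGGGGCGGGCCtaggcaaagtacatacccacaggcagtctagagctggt
Casp8: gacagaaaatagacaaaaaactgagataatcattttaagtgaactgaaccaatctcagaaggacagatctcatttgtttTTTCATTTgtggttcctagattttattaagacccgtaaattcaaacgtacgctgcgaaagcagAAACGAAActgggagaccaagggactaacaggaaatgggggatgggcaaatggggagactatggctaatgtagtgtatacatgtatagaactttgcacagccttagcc
Mlkl: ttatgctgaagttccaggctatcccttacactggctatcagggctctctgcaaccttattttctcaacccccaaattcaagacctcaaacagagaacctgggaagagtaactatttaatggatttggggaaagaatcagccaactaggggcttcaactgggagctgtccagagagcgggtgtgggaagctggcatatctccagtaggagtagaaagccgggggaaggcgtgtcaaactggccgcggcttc

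Fas held 2 matches to the NF-kB pattern, 202 and 48 bases before the start, and 1 to the IRF core. Casp8 held 2 matches to the IRF core, 171 and 108 bases before the start. The Cflar and Mlkl windows held none of the 4 patterns, nor did those of Fadd and Ripk3, and of the pair of Ripk1 windows 1 held an NF-kB match. Among 32851 promoter windows of the same length, 45.8% held the NF-kB pattern, 21.3% the IRF core, 2.98% the ISRE and 2.44% the PU.1 site. A match is a description of letters and not a shown binding site, and the absence of one says only that these letters are not in this window.

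Of the 8 genes, 7 had enough counts to test, 6 rose after LPS, none fell, Fadd did not pass and Ripk3 was too low. Of all genes tested, 26.6% rose and 25.3% fell, so that 51.9% changed. With libraries scaled by size alone the changed genes split into 22.4% higher and 77.6% lower, against 51.3% and 48.7% with TMM, and the median of all genes moved to -0.36 on the log2 scale. Fas entered the test only through its LPS counts, so its passing is not counted as support. Among the other 6 tested members 5 rose. Of all genes tested that did not enter through the counts of 1 group only, 26.0% rose. The plot of levels by library shows the 3 sizes of response among the tested genes.

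**Figure D1:**
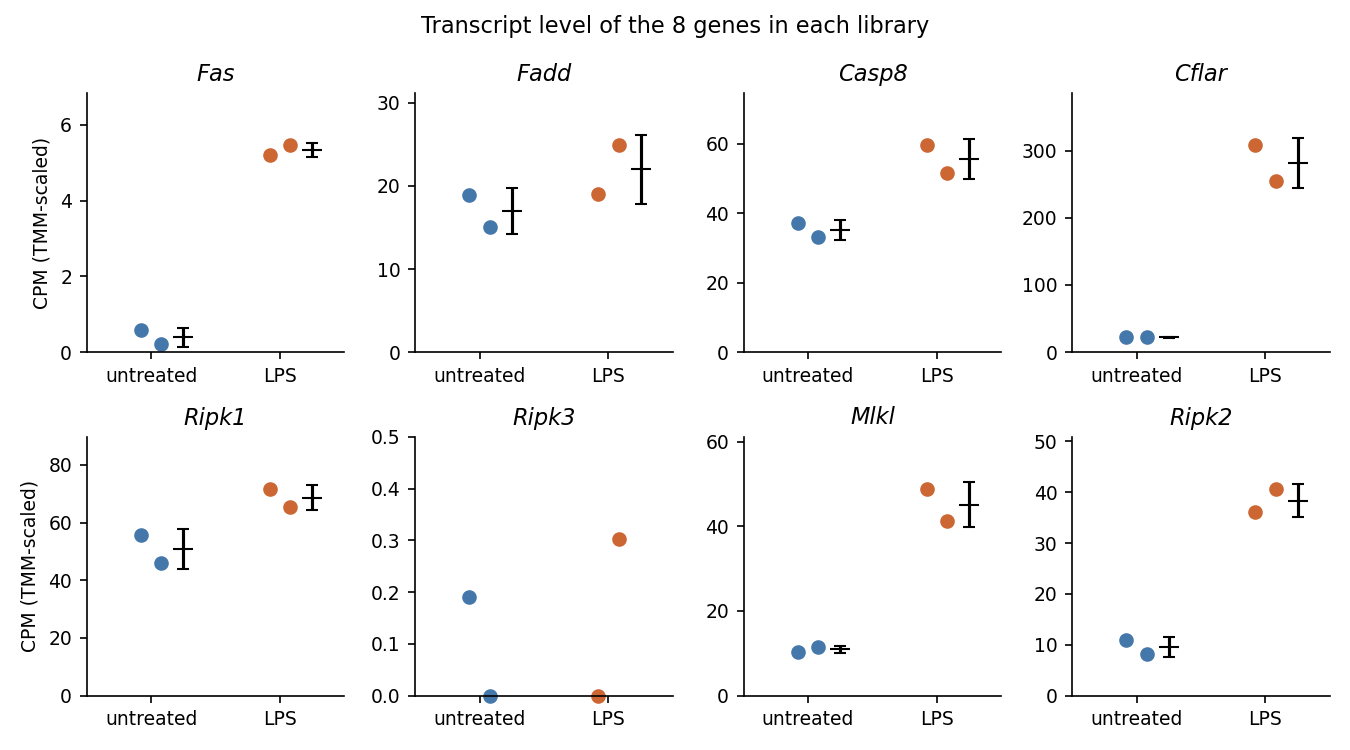
CPM of each of the 8 genes in the 2 untreated (blue) and 2 LPS (orange) libraries, with the mean and SD beside the points and each panel on its own axis from 0. Cflar goes from 22.1 to 282 CPM, Fas, Mlkl and Ripk2 also lie far apart between the groups, and Ripk3, drawn without mean or SD, has 1 count in 1 library of each group.

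Fas, the receptor, was almost silent before LPS. Untreated replicates 1 and 2 held 3 and 1 reads (0.574 and 0.221 CPM), and LPS replicates 1 and 2 held 15 and 18 reads (5.20 and 5.46 CPM). Both LPS libraries lay above both untreated libraries. Over each group's summed counts the ratio was 13.02 with a 95% exact interval of 4.63 to 50.6, which covers counting error only. The edgeR log2 fold change was 3.60 (SE 0.58, adjusted p = 8.1e-07). It was 4.39 without untreated replicate 1 and 3.14 without untreated replicate 2, so the size of the rise rests on 4 untreated reads. Even after LPS, Fas was lower per kilobase of longest transcript than the other members except Ripk3. With the shortest protein-coding transcripts it stood above Fadd after LPS, at 10.0 against 5.63 CPM per kb.

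Fadd, the adaptor that links Fas to caspase-8, was expressed in both groups and did not pass the test. Its values were 18.9 and 15.0 CPM without LPS and 19.1 and 24.9 CPM with it. The highest untreated and the lowest LPS library were nearly equal, and the log2 fold change of 0.37 (SE 0.19) did not pass (edgeR adjusted p = 0.1). It passed without LPS replicate 1 (0.54, edgeR adjusted p = 0.026). The log2 fold change was 0.01 when libraries were scaled by size alone, which is 0.37 above the median of all genes in that setting.

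Casp8, the initiator caspase gene, rose by a modest amount. It stood at 37.3 and 33.2 CPM without LPS and at 59.6 and 51.6 CPM with it, so the groups did not overlap. The rise was 1.57-fold (log2 fold change 0.65, SE 0.13, edgeR adjusted p = 5.8e-05). Under plain library-size scaling the log2 fold change was 0.29 and did not pass (edgeR adjusted p = 0.067), which is 0.65 above the median of all genes in that setting.

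Cflar, which encodes the inhibitory partner of caspase-8, rose about as much as Fas, with a far smaller SE, and the order of the pair turned between settings. It stood at 22.4 and 21.9 CPM in the untreated libraries, from 117 and 99 reads. After LPS it stood at 308 and 255 CPM, from 889 and 840 reads. The rise was 12.7-fold (log2 fold change 3.66, SE 0.12, edgeR adjusted p = 4e-30), larger than that of 98.5% of all genes tested. Over the 14 alternative settings its log2 fold change ranged from 3.31 to 3.80.

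Ripk1, the kinase at the branch between survival, apoptosis and necroptosis, moved little. It stood at 55.7 and 46.0 CPM without LPS and at 71.7 and 65.6 CPM with it. The log2 fold change was 0.43 (SE 0.13, edgeR adjusted p = 0.0038), a 1.34-fold rise. The call did not hold under DESeq2 (0.43, adjusted p = 0.089) or with offsets corrected for GC content (0.24, edgeR adjusted p = 0.1). Under plain library-size scaling it was lost too (0.07, edgeR adjusted p = 0.68). That value is 0.42 above the median of all genes in that setting. The call was also lost without untreated replicate 2 (0.29). Across genes the median log2 fold change went from 0.28 in the fifth of genes lowest in GC to -0.31 in the fifth highest, and the longest Ripk1 transcript has 45.1% GC. Ripk1 overlaps Serpinb6a at its start on the opposite strand in GENCODE vM21, and with unstranded counts its log2 fold change was 0.43.

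Ripk3, the kinase that activates MLKL, was at the floor of detection. Untreated replicate 1 and LPS replicate 2 each held 1 read and the other two libraries held none, against 922 reads of Ripk1 and 383 of Mlkl over the 4 libraries. A floor of 3 counts over a group corresponds to 0.308 CPM without LPS and 0.485 CPM with it. Both groups were under that floor, so the main fit gives no fold change, and the planned ratio of Ripk1 to Ripk3 is not given. The transcript was not detectable beyond a stray read at this depth, which is not the same as absent.

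Mlkl, the executor of necroptosis, rose, while the transcript of its activating kinase stayed at the floor. It stood at 10.3 and 11.5 CPM without LPS and at 48.9 and 41.3 CPM with it. The rise was 4.12-fold (log2 fold change 2.04, SE 0.17, edgeR adjusted p = 3.1e-14). It kept passing in all 14 alternatives, with log2 fold changes from 1.69 to 2.16.

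Ripk2, the kinase of the NOD pathway, rose by a similar amount. It stood at 10.9 and 8.18 CPM without LPS and at 36.0 and 40.7 CPM with it. The rise was 3.99-fold (log2 fold change 2.00, SE 0.19, edgeR adjusted p = 6.1e-13), within 1 SE of that of Mlkl. It passed in all 14 alternatives, with log2 fold changes from 1.64 to 2.22. The kinases Ripk1 and Ripk2 thus had rises of 1.34-fold and 3.99-fold, and the ratio of Ripk2 to Ripk1 counts per kilobase was 0.452 and 0.411 untreated and 1.16 and 1.43 after LPS.

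**Figure D2:**
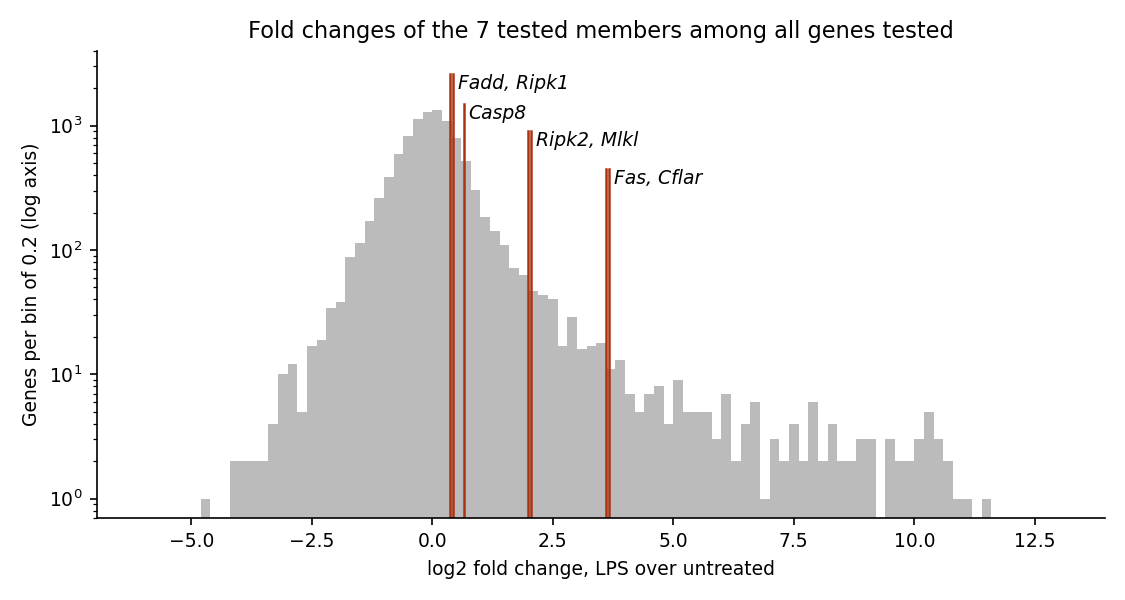
Number of genes by log2 fold change of LPS over untreated, for the 9992 genes tested, with a log count axis, and red lines at the 7 tested members. Fadd, Ripk1 and Casp8 stand on the shoulder of the main peak at 0.37 to 0.65, Ripk2 and Mlkl near 2.0, and Fas and Cflar at 3.60 and 3.66 in the upper tail.

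In the plot of all tested genes the members fall in 3 places. Fadd, Ripk1 and Casp8 exceeded 73.0%, 75.5% and 83.6% of genes by fold. Ripk2 and Mlkl exceeded 96.1% and 96.3%, and Fas and Cflar 98.4% and 98.5%. In TMM-scaled CPM, both LPS libraries lay above both untreated libraries for 7 of the 7 tested members and for 37.5% of all genes tested. The 7 include Fas, which entered the test only through its LPS counts, so its separation is not counted as support. For Fadd the margin was small, with 19.06 CPM in LPS replicate 1 against 18.93 CPM in untreated replicate 1.

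Levels of different genes were compared per kilobase of the longest GENCODE vM21 transcript. Before LPS the order was Casp8 (13.6 ± 1.13 CPM per kb), Ripk1 (7.85 ± 1.05), Mlkl (5.45 ± 0.414), Fadd (4.35 ± 0.706), Ripk2 (3.40 ± 0.685), Cflar (3.37 ± 0.0517), Fas (0.245 ± 0.153) and Ripk3. The library ranges of Fadd and Ripk2 overlapped, as did those of Ripk2 and Cflar, and the other neighbours in this order were separate. After LPS Cflar led with 42.8 ± 5.71 CPM per kb, followed by Mlkl (22.5 ± 2.67) and Casp8 (21.5 ± 2.19), whose ranges overlapped. Ripk2 (13.7 ± 1.17), Ripk1 (10.6 ± 0.673), Fadd (5.63 ± 1.06), Fas (3.28 ± 0.116) and Ripk3 came next, each separate from its neighbour. Cflar thus moved from the sixth to the first place in the order. The order depends on the length used, a check added after the data were seen. With the shortest protein-coding transcripts Ripk1 (28.4 ± 3.81 CPM per kb) stood above Casp8 (21.6 ± 1.79) before LPS, and Cflar stood in the fourth place. After LPS Cflar still led (159 ± 21.2), followed by Mlkl (76.0 ± 9.03), and Fas (10.0 ± 0.354) stood above Fadd (5.63 ± 1.06).

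**Figure D3:**
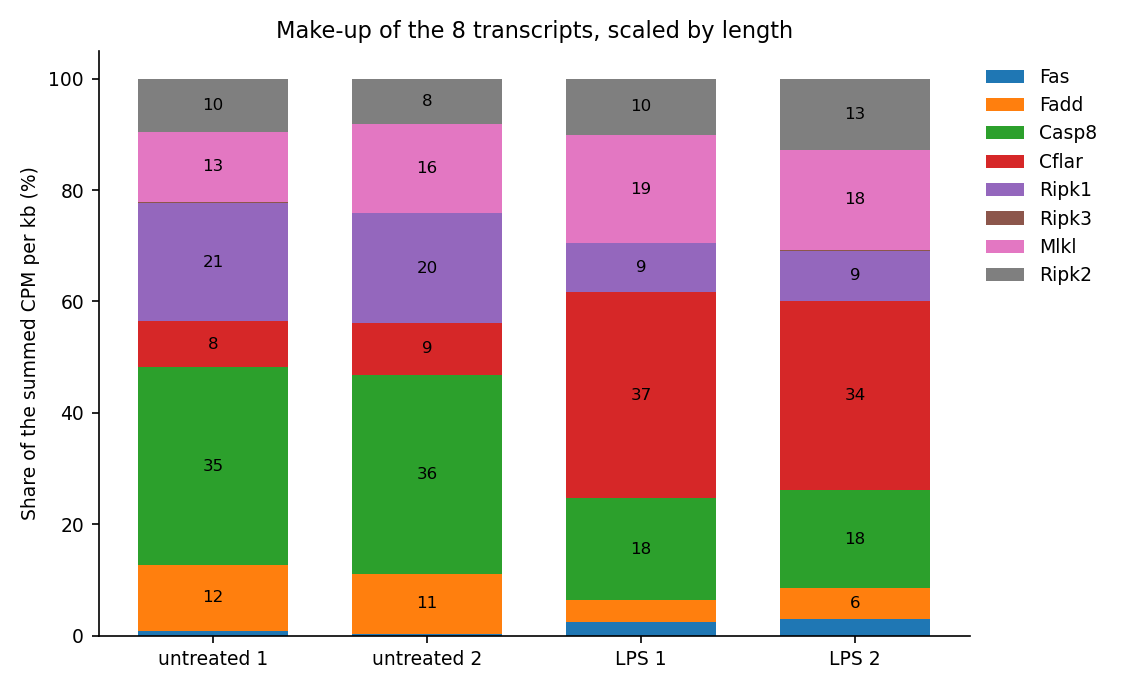
Share of each gene, in percent, in the summed CPM per kilobase of the 8 genes, 1 bar for each library. Casp8 is the largest block in the untreated bars (35.4% and 35.7%) and Cflar in the LPS bars (37.1% and 34.1%), while Casp8 falls to 17.9% on average after LPS.

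Seen as parts of 1 pool, Casp8 made up 35.6% ± 0.244 of the summed CPM per kb untreated and 17.9% ± 0.512 after LPS. Ripk1 went from 20.4% ± 0.921 to 8.83% ± 0.0862, although its own level was not lower. Cflar went from 8.81% ± 0.654 to 35.6% ± 2.15, or from 14.0% to 47.0% with the shortest protein-coding transcripts, under which Ripk1 (31.5%) was above Casp8 (24.1%) before LPS. For Casp8, Ripk1 and Cflar the libraries of a group lay closer together than the groups did. For Ripk2 the LPS libraries (10.2% and 12.7%) differed about as much as the group means (8.83% and 11.5%).

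The ratio of Cflar to Casp8, the inhibitor and its target, does not depend on how libraries are scaled. In counts per kilobase it was 0.236 and 0.260 without LPS and 2.03 and 1.94 with it, 8.03-fold higher. The ratio of Cflar to Fadd went from 0.702 and 0.865 to 9.60 and 6.08, and that of Mlkl to Ripk1 from a mean of 0.704 ± 0.147 to 2.12 ± 0.118. In each of these ratios both LPS libraries lay above both untreated ones, and the exact permutation p over libraries was 0.333, the smallest that 2 against 2 libraries allow. The level of the Cflar to Casp8 ratio depends on the transcript length used. With the shortest protein-coding transcripts its means were 0.579 untreated and 4.65 after LPS, with the same fold by construction.

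The genes closest to each member in pattern were found by the Euclidean distance between log2 CPM values centred over the 4 libraries, a description that rests on 4 points. Cflar was closest to Msr1, a scavenger receptor gene (distance 0.06), and Gch1, which encodes an enzyme of tetrahydrobiopterin synthesis (0.17). Fas was closest to Cdkn1a, a cell cycle inhibitor gene (0.28), and Cd38 (0.39). Mlkl was closest to Dcp2, which encodes an mRNA decapping enzyme (0.02), and Rnf34 (0.06). Ripk2 was closest to Zswim7 and Spryd7 (both 0.12). For the other tested members the distances were 0.01 to 0.04, to Med13 and Akap6 for Casp8, Smu1 and Nipa2 for Ripk1, and Fam133b and AU022252 for Fadd.

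The rest of the pathway was described with 8 lists of 82 other genes, of which 71 could be tested, 39 rose and 13 fell, beside 26.6% and 25.3% of all genes tested. Of the 71, 4 reached the count minimum only in the LPS libraries and 1 only in the untreated libraries, and among the other 66 genes 35 rose and 12 fell, with a median log2 fold change of 0.34. Under plain library-size scaling there were 30 risers and 23 that fell, where 1379 of all 9992 genes tested rose and 4778 fell. With GC correction 38 rose and 7 fell, where 2467 of all 9992 genes rose and 2476 fell. In the main fit the median log2 fold change of the 71 was 0.43, against 0.00 over all genes tested. Of 7 death ligand genes 2 could be tested, of which Tnfsf10 entered only through its LPS counts. Tnf rose 47.4-fold (log2 fold change 5.57, SE 0.12), and Tnfsf10, which encodes TRAIL, went from 2 reads to 125, a ratio of 98.6 whose 95% exact interval was 26.7 to 823. Fasl, the ligand of Fas, was at 0 in every library, and so was Tnfrsf10b, the mouse TRAIL receptor.

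Of the other receptors 4 were tested, 3 rose and 1 fell. Tnfrsf1b, the TNF receptor without a death domain, rose from 82.5 ± 13.7 to 853 ± 24.1 CPM. Tnfrsf1a, the TNF receptor with a death domain, went from 107 ± 8.10 to 131 ± 11.6 CPM (log2 fold change 0.29, edgeR adjusted p = 0.014), and its sign turned under plain library-size scaling (-0.07). Tnfrsf12a, a small receptor of the same family, rose 2.41-fold. Tnfrsf21, death receptor 6, was lower after LPS, at 16.7 ± 3.85 against 36.2 ± 3.10 CPM (log2 fold change -1.13, SE 0.18).

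Among adaptors and sensors that feed these kinases, 7 of 10 tested genes rose and none fell, with a median log2 fold change of 1.51. Zbp1 and Tlr3 entered the test only through their LPS counts, and among the other 8 genes 5 rose, with a median of 0.58. Zbp1, a nucleic acid sensor that can bind RIPK3, had no untreated reads and 109 after LPS, at least 57.3-fold higher when the untreated group is set to 3 counts. Nod2, the sensor upstream of RIPK2, rose from 2.27 ± 0.233 to 42.8 ± 0.802 CPM. Tlr3, which signals through the RIPK-binding adaptor TRIF, rose from 1.02 ± 0.186 to 34.7 ± 0.952 CPM. Eif2ak2, the double-stranded RNA kinase PKR, rose 9.65-fold.

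Among 14 ubiquitin regulators of RIPK1 and RIPK2, 8 rose and 4 fell, with a median log2 fold change of 0.95. Tnfaip3, which encodes A20, rose 31.6-fold, and its partner gene Tnip1 rose 7.56-fold. The ligase genes Peli1 and Birc3, the latter encoding cIAP2, rose 3.13-fold and 3.12-fold. Among 12 genes of kinases acting on RIPK1 and their scaffolds, 7 rose and 1 fell, with a median of 1.08. Ikbke rose 13.8-fold, Mapkapk2, which encodes the kinase MK2, 2.75-fold, Ikbkg, which encodes NEMO, 2.46-fold, and the TBK1 scaffold gene Tank 2.95-fold.

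Downstream of these complexes, 5 of 14 caspase and mitochondrial genes rose and 4 fell, with a median log2 fold change of -0.01, shares near those of all genes tested (26.6% and 25.3%). Without 2 genes that entered through the counts of 1 group only, 4 of 12 rose and 3 fell. Bid, the substrate that links caspase-8 to mitochondria, rose 1.77-fold. Htra2, a mitochondrial protease gene, fell (log2 fold change -0.51), and was at -0.06 after GC correction (adjusted p = 0.67).

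Of 12 genes linked to membrane events below MLKL 6 rose and 2 fell, with a median log2 fold change of 0.32. Sdcbp, Chmp4b and Flot1, all membrane trafficking genes, rose, with log2 fold changes of 0.76, 0.76 and 0.85. Itpk1, an inositol phosphate kinase gene, fell from 19.4 ± 0.395 to 9.36 ± 0.498 CPM. Of the other RIP and LRRK family kinases 3 of 5 could be tested, and Ripk4 and Ankk1 were at 0. Lrrk2 rose 2.12-fold, and Lrrk1 fell (log2 fold change -0.65, SE 0.25), a call that was lost under DESeq2 (adjusted p = 0.26) and after GC correction (adjusted p = 0.16).

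**Figure D4:**
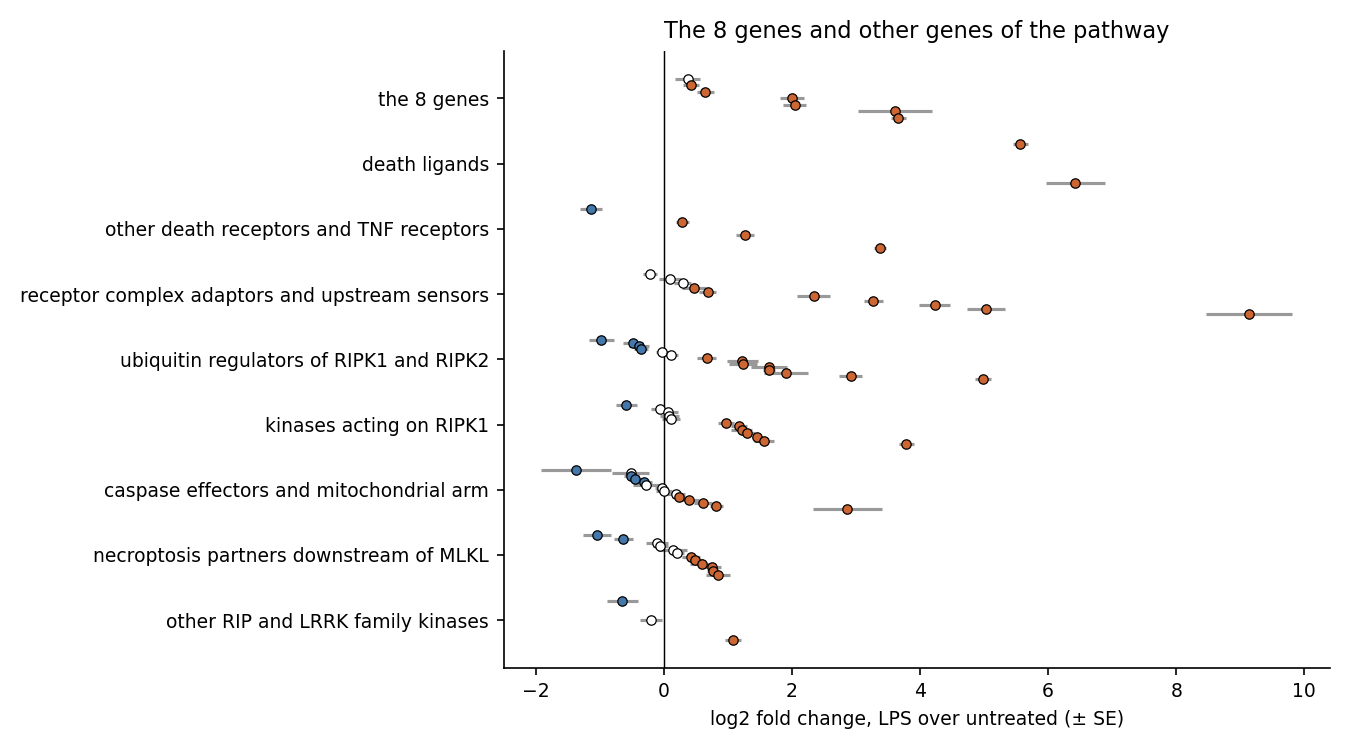
log2 fold change of LPS over untreated with its SE for each tested gene of the members and the 8 pathway lists, filled orange where higher, filled blue where lower and open where the test was not passed. Ligands, sensors and ubiquitin regulators reach far to the right, while the caspase and mitochondrial genes sit on both sides of 0 with a median of -0.01.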

How the data were processed

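Per the labels' protocols, ribosomal RNA was depleted from total RNA and strand-specific paired-end libraries were made. Rn45s, the ribosomal RNA precursor entry, still held 14.6% and 19.0% of gene counts without LPS, and 20.9% and 20.0% with it. It was among the abundant entries left out in an alternative fit. Tools named in the submitters' processing notes are STAR 2.5.1, Trimmomatic 0.33, CASAVA 1.8.2 and DESeq2. These notes also give the build as hg19, although the symbols are mouse. For the gene annotation, no version was found in the labels. The authors deposited unnormalised read counts for each gene, in 3 strand columns after 4 summary lines, and those lines entered neither library sizes nor tests. Reverse-strand counts were used, since they outnumbered forward-strand counts 78.7 to 95.3 times. Reads in no annotated feature made up 53.0% and 51.8% of uniquely placed reads without LPS and 59.1% and 57.4% with it, and the part of this difference in the results was not tested.

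Low genes were removed with filterByExpr (minimum count 10, minimum total 15), and the fit used edgeR 4.0.16 in R 4.3.3 with treatment as the only term, robust, and Benjamini-Hochberg adjusted p below 0.05. The SE is approximated as the log2 fold change over the root of its F statistic. The fit was run on counts simulated from its own dispersions, with few changed genes, balanced between higher and lower. Such counts check the code and cannot show how the scaling acts on these data. Alternatives were DESeq2 1.42.0, other scalings, filters and strands, a replicate block, GC correction, 5 abundant entries left out, and each library left out. The labels do not say that libraries came from separate cultures, so p-values measure the spread between these libraries, which may be technical.

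Members and lists were chosen with earlier results of these data known. All members are named. Of each pathway list up to 4 changed genes by smallest p are named, and 2 genes most like each member. Some genes that this rule takes are not reported here. Others named were chosen after their values were seen. Microglial and other cell type markers served as a check. Lengths and GC content came from the longest GENCODE vM21 transcript, and 96.6% of tested genes had one. Promoters came from RefSeq.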

Additional observations from a re-analysis of the deposited data

Results flagged for a closer look

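Opposite-strand reads, a column that no comparison above draws on, were more numerous in both LPS libraries than in both untreated libraries for 5 of the 8 genes, against 9.94% of all genes tested and 20.3% of those whose own reads rose. The LPS libraries together held 15 such reads for Cflar, 6 for Fadd, 5 for Mlkl, 3 for Casp8 and 3 for Ripk2, against 1, 1, 0, 0 and 0 in the untreated libraries. For Cflar these were 0.86% of its stranded reads after LPS, and for Fadd 4.20%, while opposite-strand reads made up 1.04% to 1.26% of stranded gene counts over whole libraries. The difference was not tested.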

How the results depend on the processing

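Cflar, Mlkl and Ripk2 kept their direction and passed in each of the 14 alternatives. Fas kept its direction too, but its passing is not counted as support, since its untreated counts were below the count minimum. Calls moved for 3 members. Scaling by library size alone ended the calls of Casp8 (log2 fold change 0.29) and Ripk1 (0.0671), DESeq2 and GC correction ended that of Ripk1 (0.43 and 0.24), and Fadd passed without LPS replicate 1. Leaving out each library gave 0.16 to 0.55 for Fadd, 0.55 to 0.75 for Casp8 and 0.29 to 0.57 for Ripk1, whose call ended without untreated replicate 2. The cause was not tested. Of all genes, 5186 changed with edgeR, 3176 with DESeq2 and 5171 with the replicate block. The block fit changed no call among the members. The numbers in the titles are not said to pair libraries, and same-numbered deviations correlated at -0.04 across genes. With all 4 libraries the number of members called, Fas included, ranged from 4 to 6. It was 4 under scaling by library size alone, where 1379 of 9992 genes tested rose and 4778 fell. It was 6 in the main fit, where 2659 rose and 2527 fell. Without a filter Ripk3 had a log2 fold change of 0.51 (edgeR adjusted p = 0.88), from 2 reads under the floor, and this value is not read as a change. Using the shortest protein-coding transcripts, an alternative chosen after seeing the data, moved levels per kilobase, as given beside their order. Depth limits Fas and Ripk3. The planned Ripk1 to Ripk3 ratio was not run, since a library of each group has no Ripk3 read.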

Other observations

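LUBAC is the ligase complex that adds linear ubiquitin chains to RIPK1 and RIPK2. In the main fit its subunits differed in direction, but only the rise of Rnf31 held under DESeq2 and after GC correction. Rnf31, its catalytic subunit, rose by 1.91 on the log2 scale (SE 0.34, edgeR adjusted p = 5.4e-06), from 2.56 ± 0.173 to 9.71 ± 0.0081 CPM, and passed in 14 of 14 alternatives. Rbck1 fell from 93.2 ± 1.44 to 73.0 ± 0.184 CPM (-0.35) and passed in 10 of 14. It was at 0.10 after GC correction (edgeR adjusted p = 0.46), and did not pass under DESeq2 (adjusted p = 0.091). Sharpin fell from 37.5 ± 1.67 to 28.5 ± 2.60 CPM (-0.39) and passed in 9 of 14. It was at -0.16 after GC correction (edgeR adjusted p = 0.38), and did not pass under DESeq2 (adjusted p = 0.25). Among enzymes that trim such chains, Cyld rose 2.35-fold and passed in all 14, its partner gene Spata2 fell (-0.49) and passed in 10, and Otulin was at 101 and 110 CPM (0.12, edgeR adjusted p = 0.36).

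The inhibitor of apoptosis genes Birc2 and Birc3 rose 2.34-fold and 3.12-fold and passed in all 14 alternatives, and Xiap, which also binds RIPK2, rose 1.59-fold and passed in 12. In the mitochondrial arm, whose list with the caspases had 5 risers and 4 that fell, Bax fell (-0.45) and was at 0.11 after GC correction. Casp9 fell (-0.31), passed in 8 of 14 and was at -0.15 after GC correction (edgeR adjusted p = 0.33). Apaf1 (0.39) and Cycs (0.23) rose and passed in 6 and 5 of 14, and Bak1 did not pass (-0.03). Nod1 rose 5.06-fold and passed in all 14. These genes were picked from the pathway lists after their values were seen.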
